A study of Sus scrofa with 11 samples.

Results

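Metallothioneins are small cysteine-rich proteins that bind zinc, copper and cadmium, and the liver holds much of the body's supply. MTF1 is a zinc-finger transcription factor that senses free zinc. In mammals it switches on metallothionein genes and SLC30A1, which encodes the zinc exporter of the plasma membrane. In liver the metallothionein genes are also known to respond to glucocorticoids, fasting and the acute phase cytokine IL-6, whereas MT3 is best known from brain. The 4 genes MT1X, MT3, MTF1 and SLC30A1 were followed here among the 12505 genes of the table. All 4 were found by symbol. The metallothioneins were chosen by their FPKM values in earlier results of the same libraries, so their levels are given as a description with no test. MTF1 and SLC30A1 were added for their role in metal sensing.

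RNA came from livers of wild-type pigs, in 2 control libraries labelled day 0 and, 35 days after the liver was irradiated by the labels, in 3 libraries for each dose of 20, 30 and 40 Gy. Against control, dose and elapsed time cannot be told apart. Between doses the day is the same. The labels name no age, sex or breed, call the cell type hepatocyte although the source is liver, and do not tie each library to its own animal. The p-values therefore rest on how much libraries vary, and that variation may be technical. Values are FPKM, fragments scaled by transcript length and by the mapped total, which can be compared between genes as levels per length, and the depth of each library is unknown.

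Several libraries stood apart from their labels' groups. Over 4806 genes with at least 5 FPKM in every library, the SD of the log2 ratio was 0.130 between 20Gy-3 and 30Gy-3. It was 0.137 between 30Gy-1 and its neighbour 30Gy-2, and 0.305 to 1.008 in the other 53 pairs. The libraries of 20 and 30 Gy fell into sets that cut across dose. The SD was 0.130 to 0.315 among 20Gy-1, 20Gy-3 and 30Gy-3, and 0.137 to 0.352 among 20Gy-2, 30Gy-1 and 30Gy-2. Between these sets it was 0.543 to 0.642. Means and SDs take the pair within 30 Gy as 1 sample. Fitted differences and p-values count every library singly unless an alternative is named. All 10 hepatocyte markers were measured, and their summed level was 40416 to 63729 FPKM in control, 44099 to 54410 FPKM at 20 and 30 Gy, and 16842 to 23369 FPKM at 40 Gy. The sum gives most weight to the most abundant markers, and not every marker was lower at 40 Gy. TAT had 261 and 302 FPKM in control and 171, 2427 and 2026 FPKM at 40 Gy. CPS1 had 382 and 381 FPKM in control and 150, 587 and 593 FPKM at 40 Gy. Among the 40 Gy libraries both were lowest in 40Gy-1, although the summed level was highest there. The other markers are not given singly here. In these bulk samples fewer cells of a type and less RNA per cell cannot be told apart.

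MT1X, a classical hepatic metallothionein (ENSSSCG00000030300), was among the most abundant transcripts of control liver and stood far lower in all 6 libraries of the lower doses. It had 7269 and 6127 FPKM in the controls. At 20 Gy it had 108, 93.2 and 165 FPKM, and at 30 Gy 152, 148 and 160 FPKM. The libraries of 40 Gy had 1679, 7340 and 14684 FPKM in the order of their numbers. No library of the lower doses came near a control or a 40 Gy library: the lower control was 37.1-fold and 40Gy-1 10.2-fold above the highest of them. The 40 Gy libraries spanned the controls, with 40Gy-1 below both and 40Gy-2 and 40Gy-3 above both.

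**Figure D1:**
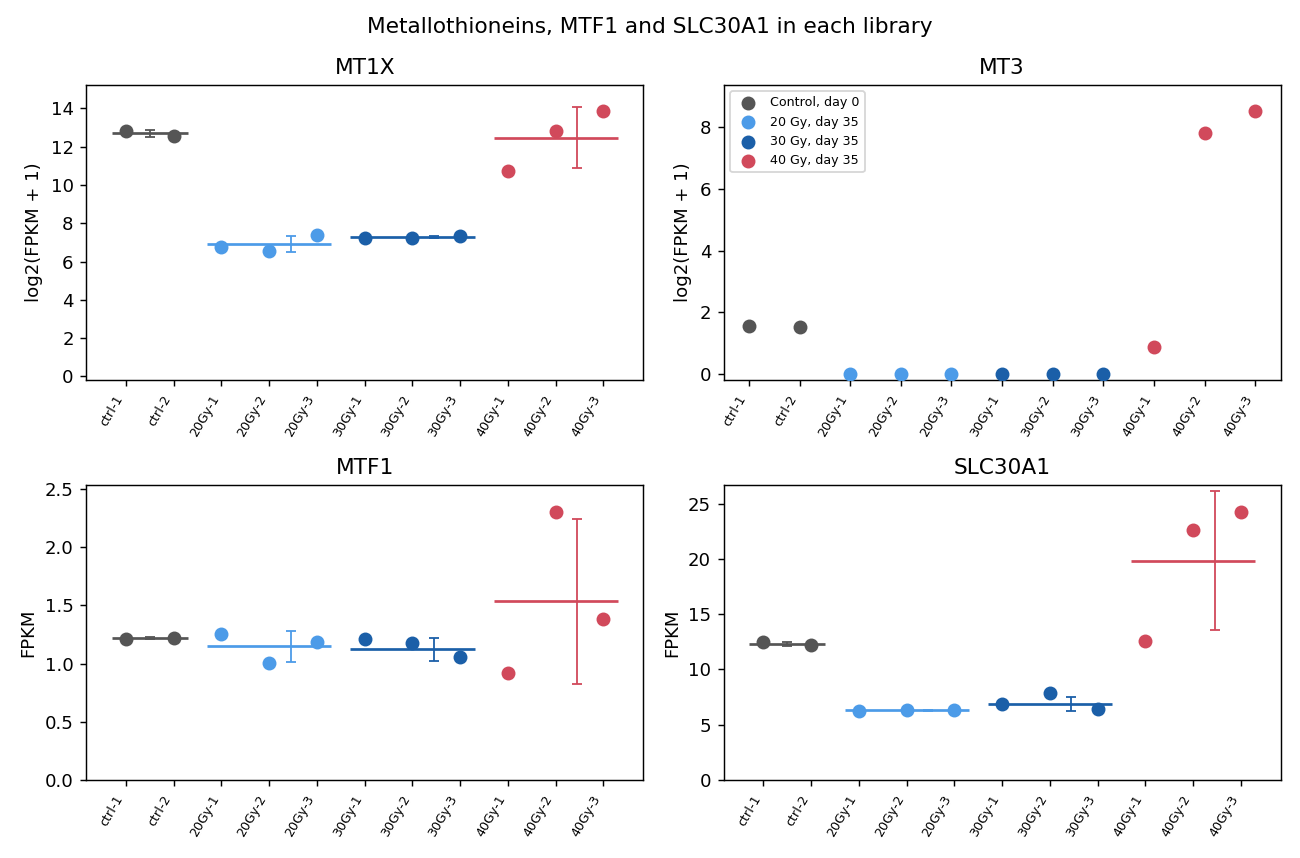
Level of each gene in each of the 11 libraries, as log2(FPKM + 1) for MT1X and MT3 and as FPKM for MTF1 and SLC30A1. Points are libraries, lines are group means and bars are SDs (n = 2 in control, 3 at 20 Gy, 2 at 30 Gy with the near-identical pair averaged, 3 at 40 Gy), with no mean drawn for MT3, which is listed at 0 in all 6 libraries of 20 and 30 Gy. MT1X, MT3 and SLC30A1 are lowest at 20 and 30 Gy, and MTF1 lies between 0.917 and 2.31 FPKM.

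The group means of MT1X were 6698 ± 808 FPKM (SD, n = 2) in control, 122 ± 37.9 (SD, n = 3) at 20 Gy, 155 ± 7.33 (SD, n = 2) at 30 Gy and 7901 ± 6520 (SD, n = 3) at 40 Gy. In this order the control and 40 Gy did not differ beyond their spread, nor did 20 and 30 Gy. On the log2(FPKM + 1) scale the difference from control was -5.80 (SE 0.69) at 20 Gy, -5.44 (SE 0.69) at 30 Gy and -0.24 (SE 0.69) at 40 Gy. 40 Gy stood 5.38 (SE 0.54) above the mean of 20 and 30 Gy. The value at 40 Gy rested on which library was included: against control it was 0.64 without 40Gy-1, -0.43 without 40Gy-2 and -0.93 without 40Gy-3. With the pair within 30 Gy averaged and the third libraries of 20 and 30 Gy dropped, the differences from control at 20 and 30 Gy were -6.04 and -5.47, so they were about as large without the near-identical libraries.

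By rank among the 12505 genes of each library, MT1X was 18th and 16th in the controls. Its rank in the lower doses ran from 402 to 756. At 40 Gy it was 46th, 21st and 12th. It made up 0.851% and 0.816% of the summed FPKM of the controls, 0.0139% to 0.0236% at 20 and 30 Gy, and 0.322%, 0.867% and 1.55% at 40 Gy. Hence the lower doses held 1.39% to 2.47% of the control mean. The spread within the lower doses was small beside this gap, with 1.77-fold between the highest and the lowest of the 6 libraries.

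MT3 (ENSSSCG00000024305, Sscrofa11.1 chromosome 6, 18634735 to 18636134), known in brain as growth inhibitory factor, was barely present in control liver and was abundant in 40Gy-2 and 40Gy-3. It had 1.98 and 1.88 FPKM in the controls. In all 6 libraries of 20 and 30 Gy it is listed at 0, which can be a failed estimate, so no fold is given against them. At 40 Gy it had 0.834, 225 and 368 FPKM. The controls and 40 Gy overlapped only through 40Gy-1, which lay below both controls, while 40Gy-2 and 40Gy-3 were 114-fold and 186-fold above control-1. The difference of 40 Gy from control was 4.19 (SE 1.71) on the log2(FPKM + 1) scale, and 6.62 without 40Gy-1, 3.15 without 40Gy-2 and 2.80 without 40Gy-3.

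MT3 was 1 of 76 genes listed at 0 in each of the 6 libraries of 20 and 30 Gy. Of 5 genes listed as markers of neurons and astrocytes only GFAP was measured. It was at 0.0280 to 0.116 FPKM in the controls, at 0.265 to 0.626 FPKM at 20 and 30 Gy and at 0.495 to 1.36 FPKM at 40 Gy. A single gene cannot show which cells are present, and the cell source of MT3 was not tested.

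MT1X and MT3 are close relatives, and near-identical metallothionein copies may share reads, which FPKM values cannot reveal. The level of MT3 as a share of MT1X was 0.0272% and 0.0307% in the controls and 0.0497% in 40Gy-1. It was 3.07% and 2.50% in 40Gy-2 and 40Gy-3. The part of shared reads in these levels was not tested. The RefSeq gene table of Sscrofa11.1 places MT3 in a row of 5 named metallothionein genes on chromosome 6 (MT4, MT3, MT-2B, MT1D and MT1A). MT4, MT-2B, MT1D and MT1A were not analysed here. No single position was found under the symbol MT1X, so which gene of that row it is, if any, is unknown here.

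**Figure D2:**
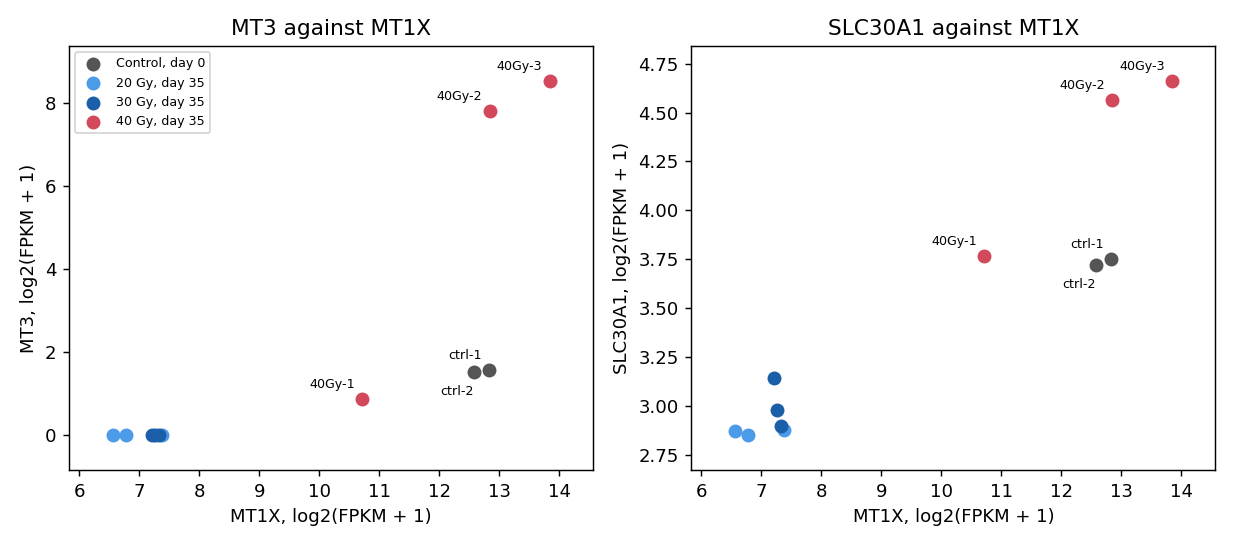
MT3 (left) and SLC30A1 (right) against MT1X in the 11 libraries, all as log2(FPKM + 1), coloured by group, with control and 40 Gy libraries labelled. The 6 libraries of 20 and 30 Gy sit together at the lower left. Control-1 and 40Gy-2 share a level of MT1X (7269 and 7340 FPKM) but lie apart in MT3 (1.98 and 225 FPKM) and SLC30A1 (12.5 and 22.7 FPKM).

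SLC30A1 (ENSSSCG00000039472, chromosome 9, 131633586 to 131636934) followed the same order of groups with a much smaller span, and rose at 40 Gy against the lower doses. It had 12.5 and 12.2 FPKM in the controls. At 20 Gy it had 6.21, 6.31 and 6.35 FPKM, and at 30 Gy 6.87, 7.83 and 6.45 FPKM. At 40 Gy it had 12.6, 22.7 and 24.3 FPKM. Every library of the lower doses lay below both controls and every 40 Gy library above them, although 40Gy-1 cleared the higher control by little. The lower doses held 50.4% to 63.6% of the control mean, against 102%, 184% and 197% in the 3 libraries of 40 Gy. The summed FPKM was lowest of all libraries in 40Gy-1, and these levels are not corrected for it.

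In limma's fit to all genes, SLC30A1 was 1.39 (SE 0.19) higher at 40 Gy than at the mean of 20 and 30 Gy on the log2(FPKM + 1) scale, 2.63-fold on that scale, with adjusted p = 0.00124 (1.89e-05 to 0.0609 over the alternatives). In that comparison 21.5% of all 11644 genes tested were called, 11.8% higher and 9.71% lower, so a call there is common. Both the gene and the comparison were chosen with earlier results of these libraries known, so its p-value is not that of an independent test. With that pair averaged and the third libraries of 20 and 30 Gy dropped, the difference was 1.37 with adjusted p = 0.0609. Against control the differences missed the threshold of 0.05: -0.87 (SE 0.25) at 20 Gy with adjusted p = 0.0755 (range 0.00351 to 0.315), -0.73 (SE 0.25) at 30 Gy with adjusted p = 0.161 (range 0.0093 to 1), and 0.60 (SE 0.25) at 40 Gy with adjusted p = 0.166 (range 0.00301 to 0.411). The shares of all genes called in these comparisons were 4.23% at 20 Gy (2.03% higher and 2.2% lower), 3.03% at 30 Gy (1.32% higher and 1.71% lower) and 7.39% at 40 Gy (2.99% higher and 4.41% lower). Without 40Gy-1, which widens the spread used for every group, the adjusted p at 20, 30 and 40 Gy were 0.00351, 0.0093 and 0.00301, with a difference of 0.88 at 40 Gy. In a fit to the control and 20 Gy libraries alone the adjusted p at 20 Gy was 0.0437.

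MTF1 (ENSSSCG00000037516, chromosome 6, 93837195 to 93884427), a known regulator of metallothionein genes in mammals, was low and showed no difference past the threshold. Which of the other genes it regulates in pig liver was not tested. It had 1.21 and 1.22 FPKM in the controls, 1.26, 1.001 and 1.19 FPKM at 20 Gy and 1.21, 1.18 and 1.05 FPKM at 30 Gy. At 40 Gy it had 0.917, 2.31 and 1.38 FPKM, so this group held both the lowest and the highest library. Limma gave differences from control of -0.05 (SE 0.21, adjusted p = 0.922) at 20 Gy, -0.05 (SE 0.21, adjusted p = 0.941) at 30 Gy and 0.16 (SE 0.21, adjusted p = 0.692) at 40 Gy. 40 Gy lay 0.20 (SE 0.16) above the lower doses, with adjusted p = 0.394 (range 0.0553 to 0.983). These are levels of the transcript, and MTF1 is known to be activated as a protein by zinc.

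Among the 3 libraries of 40 Gy, 40Gy-1 was the lowest in all 4 genes. From 40Gy-1 to 40Gy-3 the ratio was 8.74-fold in MT1X and 441-fold in MT3. The summed FPKM was lowest of all libraries in 40Gy-1 (520839) and highest in 40Gy-3 (949840). Neither these ratios nor the order of the libraries are corrected for it, which matters most for the smaller spans of SLC30A1 and MTF1. The summed level of 8 stellate cell and fibroblast markers was 325 FPKM at its highest in the 40 Gy group, in 40Gy-1, and 20.9 FPKM at its lowest, against 39.8 to 40.0 FPKM in control and 79.9 to 119 FPKM at 20 and 30 Gy. The 4 neutrophil markers measured summed to 1.65 to 4.74 FPKM in control, 1.24 to 1.75 FPKM at 20 and 30 Gy and 8.42 to 18.2 FPKM at 40 Gy. These low sums hide markers that differ. MPO was under 1 FPKM in every control and every 40 Gy library. S100A8, CSF3R and S100A12 were under 1 FPKM in every library of 20 and 30 Gy, where MPO was not always so. Endothelial markers (7 of 7 measured) summed to 280 to 325 FPKM in control, 103 to 140 FPKM at 20 and 30 Gy and 111 to 229 FPKM at 40 Gy. Among the 40 Gy libraries, 40Gy-1 also had the highest sums for macrophages (1142 FPKM), T and NK cells (35.6 FPKM) and B and plasma cells (110 FPKM). The erythroid (54.3 FPKM) and hepatocyte sums were highest there too. The highest endothelial and bile duct sums were in 40Gy-2, and the highest neutrophil sum and GFAP level in 40Gy-3. The part of these cell types in the levels of the 4 genes was not tested.

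By Pearson's r of log2(FPKM + 1) over the 11 libraries, a description over points that include the near-identical pairs, the genes most like MT1X among 5833 with a symbol and a mean of at least 5 FPKM were OLA1 (0.988), an ATPase, ASPG (0.981), an asparaginase, ABHD5 (0.972), the coactivator of the triglyceride lipase ATGL, the translation factor subunit EIF3E (0.963) and the bile acid responsive repressor NR0B2 (0.963). ABHD5 had 72.8 and 87.7 FPKM in control, 5.90 to 11.4 FPKM at 20 and 30 Gy and 28.2, 56.8 and 65.3 FPKM at 40 Gy. The most opposite were ACSS2 (-0.987), which makes acetyl-CoA from acetate, the chemokine CXCL9 (-0.975), DVL2 (-0.974), DOCK6 (-0.972) and LDLRAD4 (-0.969). Without 40Gy-2 and 40Gy-3, r of these 10 genes with MT1X was 0.94 to 0.98 and -0.99 to -0.96. For MT3 the listed zeros entered as deposited, so its r depends on them. The most alike were NPM1 (0.989), RANBP2 (0.987), STK24 (0.986), AGTR1 (0.982) and ITPRID2 (0.980), and among the most opposite were ZC3HAV1 (-0.981), ZMYND8 (-0.981), LECT2 (-0.978) and TM6SF1 (-0.974). The likeness to MT3 rested more on 40Gy-2 and 40Gy-3: over the other 9 libraries r fell as far as 0.75 for STK24 and -0.50 for LECT2.

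Beside SLC30A1, other zinc transporters differed in both directions. As given above for all genes tested, 4.23%, 3.03% and 7.39% were called at 20, 30 and 40 Gy against control and 21.5% at 40 Gy against the lower doses, and the counts of each list are to be read against these shares. With both treatments of the near-identical libraries together, every call of a listed gene named here and below was lost, except those of SRXN1. These were the pair within 30 Gy averaged and the third libraries of 20 and 30 Gy dropped. Of the 5 zinc exporters measured of 9 listed, 1 rose and 1 fell at 20 Gy, 1 rose at 30 Gy, 0 were called at 40 Gy, and 1 rose and 1 fell at 40 Gy against the lower doses. SLC30A2, which loads zinc into vesicles, was highest at the lower doses, where SLC30A1 was lowest, and its 40 Gy libraries lay between these and the controls, with 0.349 and 0.127 FPKM in control, 1.82 to 2.22 FPKM at 20 and 30 Gy and 0.880, 0.693 and 0.649 FPKM at 40 Gy. It rose by 1.34 on the log2 scale at 20 Gy (SE 0.15, limma adjusted p = 0.00159, range 0.000567 to 0.0663) and by 1.26 at 30 Gy (SE 0.15, adjusted p = 0.00261, range 0.000763 to 0.357), and was 0.80 lower at 40 Gy than at the lower doses (difference -0.80, SE 0.12, adjusted p = 0.00208, range 0.000665 to 0.0899). SLC30A7, the exporter into the Golgi, fell at 20 Gy (-0.84, SE 0.19, adjusted p = 0.039, range 0.00673 to 0.224) and was higher at 40 Gy than at the lower doses (0.69, SE 0.15, adjusted p = 0.0114, range 0.00113 to 0.137). The call of SLC30A7 at 20 Gy was lost without any 1 library of control (0.224 and 0.107), of 20 Gy (0.153, 0.0671 and 0.0628) or of 30 Gy (0.0743, 0.0744 and 0.0531), and that at 40 Gy against the lower doses without 40Gy-2 (0.0681) and 40Gy-3 (0.0534). The median difference of the exporters was 0.08, 0.17, 0.22 and -0.05 in the 4 comparisons, against -0.03, -0.02, 0.06 and 0.07 over all genes tested.

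Of the 11 zinc importers measured of 14 listed, 1 rose at 20 Gy, 1 fell at 30 Gy, 0 were called at 40 Gy, and 4 were higher at 40 Gy than at the lower doses, with medians of -0.62, -0.41, 0.03 and 0.26. SLC39A5, an importer of the basolateral membrane, had 73.1 and 58.0 FPKM in control, 33.5 to 44.2 FPKM at the lower doses and 62.9, 87.6 and 94.8 FPKM at 40 Gy (1.01 above the lower doses, SE 0.17, limma adjusted p = 0.00406, range 0.000456 to 0.109). SLC39A14, the acute phase importer of hepatocytes, had 114 and 103 FPKM in control, 54.3 to 92.1 FPKM at the lower doses and 101, 224 and 209 FPKM at 40 Gy (1.22, SE 0.30, adjusted p = 0.0182, range 0.00139 to 0.199). SLC39A1 (0.71, SE 0.20, adjusted p = 0.0293, range 0.0138 to 0.25) and SLC39A6 (0.50, SE 0.15, adjusted p = 0.037, range 0.0185 to 0.231) were the others called there. SLC39A4, known for zinc uptake in the gut, rose at 20 Gy (1.09, SE 0.21, adjusted p = 0.0176, range 0.00643 to 0.194), and SLC39A8 fell at 30 Gy (-0.86, SE 0.20, adjusted p = 0.0489, range 0.0244 to 0.855). At 40 Gy against the lower doses calls were lost without 40Gy-2 and 40Gy-3 for SLC39A14 (0.0989 and 0.0809), SLC39A1 (0.095 and 0.0902) and SLC39A6 (0.157 and 0.102), and without 20Gy-1 and 20Gy-3 for SLC39A1 (0.0666 and 0.0625) and SLC39A6 (0.0503 and 0.0702). The call of SLC39A6 was lost also without 20Gy-2 (0.056) or any 1 library of 30 Gy (0.0538, 0.0769 and 0.0538). The call of SLC39A4 was lost without control-1, control-2, 20Gy-1 and 20Gy-3 (0.113, 0.0957, 0.0777 and 0.0582), and that of SLC39A8 without every library but 40Gy-1 and 40Gy-2 (0.0521 to 0.282).

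**Figure D3:**
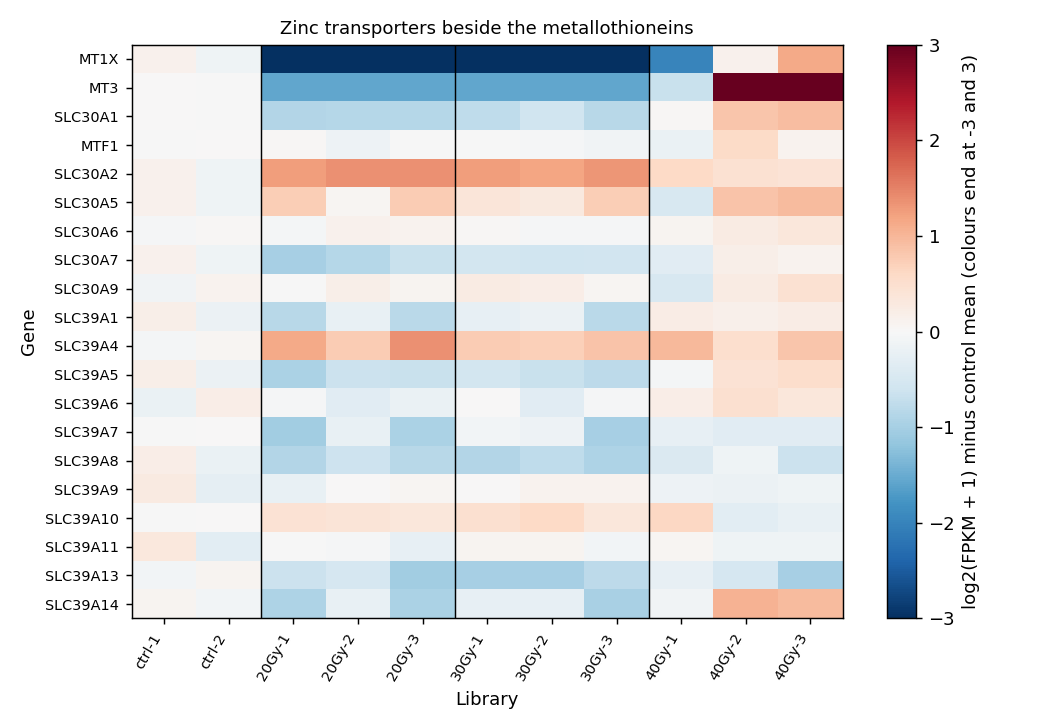
Difference of each library from the control mean, on the log2(FPKM + 1) scale, for the 4 genes (top), 5 zinc exporters (SLC30A) and 11 zinc importers (SLC39A), with black lines between groups and colours that end at -3 and 3. SLC30A1 and SLC39A5 are below control at 20 and 30 Gy and highest in 40Gy-2 and 40Gy-3, and SLC30A2 is highest at 20 and 30 Gy.

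Copper is also bound by metallothioneins, and of the 15 copper handling genes measured of 16 listed 0 were called against control at any dose and 2 fell at 40 Gy against the lower doses, where 21.5% of all genes tested were called and 9.71% were lower. These were CCS, the copper chaperone of superoxide dismutase (-0.86, SE 0.14, limma adjusted p = 0.00335, range 0.00108 to 0.0954), and the copper importer SLC31A1 (-0.73, SE 0.20, adjusted p = 0.026, range 0.0122 to 0.25). The medians of the list were -0.48, -0.05, -0.32 and 0.18. Of 16 zinc and copper enzymes measured of 18 listed, 0 were called at 20 or 30 Gy, 1 rose and 3 fell at 40 Gy, and 1 rose and 3 fell at 40 Gy against the lower doses, beside 7.39% and 21.5% of all genes tested. The medians of these enzymes were 0.34, 0.32, -0.03 and -0.17. SOD1, which takes its copper from CCS, had 111 and 69.4 FPKM in control, 91.8 to 112 FPKM at the lower doses and 46.1, 35.4 and 35.6 FPKM at 40 Gy (-1.37 against the lower doses, SE 0.18, adjusted p = 0.00118, range 0.000413 to 0.0662). ALAD, the zinc enzyme of haem synthesis, fell at 40 Gy against control (-0.91, SE 0.19, adjusted p = 0.0182, range 0.0109 to 0.144), a call lost without control-1 (0.114), control-2 (0.0754) or 40Gy-2 (0.0691). The call of SLC31A1 was lost without 40Gy-2 (0.0781) or 40Gy-3 (0.0902), and without the libraries numbered 1 or 3 of 20 Gy (0.0577 and 0.0568) and of 30 Gy (0.0525 and 0.0504).

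Metallothionein genes share inducers with the oxidant response, of which 12 genes of 13 listed were measured. 0 were called at 20 or 30 Gy, 2 rose at 40 Gy, and 4 rose at 40 Gy against the lower doses, where 2.99% and 11.8% of all genes tested were called higher, with medians of -0.32, -0.26, 0.15 and 0.54. Sulfiredoxin, SRXN1, had 1.40 and 2.46 FPKM in control, 1.99 to 5.18 FPKM at the lower doses and 13.8, 27.9 and 29.2 FPKM at 40 Gy, a rise of 2.46 over the lower doses (SE 0.28, limma adjusted p = 0.000485, range 6.3e-05 to 0.0298). GCLM, of glutathione synthesis, had 8.37 and 8.21 FPKM in control and 14.4 to 18.0 FPKM at the lower doses, above both controls. At 40 Gy it had 11.9, 24.3 and 26.2 FPKM. Its difference between 40 Gy and the lower doses was 0.24 (SE 0.22, limma adjusted p = 0.447). Against control GCLM was called only at 40 Gy (1.16, SE 0.28, adjusted p = 0.0371, range 0.000241 to 0.236). That call was lost in 15 of 20 alternatives, among them the omission of either control (0.161 and 0.154), of 20Gy-1 (0.0617) or 20Gy-3 (0.0565), of any 1 library of 30 Gy (0.0634, 0.0644 and 0.0502), and of 40Gy-2 (0.12) or 40Gy-3 (0.0876). MT1X and SRXN1 were both higher at 40 Gy than at 20 and 30 Gy, but in control MT1X was high and SRXN1 low.

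Of 15 glucocorticoid responsive genes measured of 16 listed, 0 were called at 20 or 30 Gy and 1 fell at 40 Gy in both comparisons of that dose, where 4.41% (against control) and 9.71% (against the lower doses) of all genes tested were called lower. This was HSD11B1, which regenerates active glucocorticoid (-1.19 against control, SE 0.22, limma adjusted p = 0.0121, range 0.00365 to 0.157). Its call against control was lost without control-1 (0.0857) and control-2 (0.0523). Against the lower doses the difference was -0.55 (SE 0.17, adjusted p = 0.0448, range 0.0296 to 0.343), a call lost without any 1 of the 11 libraries (0.0529 to 0.119). The medians of the list were 0.53, 0.14, 0.50 and -0.01 in the 4 comparisons, against -0.03, -0.02, 0.06 and 0.07 over all genes tested. PCK1, the gluconeogenic enzyme that fasting and glucocorticoids raise, had 1550 and 1401 FPKM in control. It had 1639, 102 and 1599 FPKM at 20 Gy and 96.4, 94.5 and 1614 FPKM at 30 Gy, a 17.3-fold span over these 6 libraries. No difference of PCK1 passed the threshold, and the listed genes did not all span as widely. G6PC1 ran from 128 to 1009 FPKM over the same libraries. FKBP5 ran from 37.5 to 62.7 FPKM, above both controls (21.2 and 22.8 FPKM). At 40 Gy PCK1 had 303, 1866 and 1898 FPKM, so 40Gy-1 was the lowest there too. The part of glucocorticoids or fasting in the levels of MT1X was not tested.

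Of 11 genes of the IL-6 and acute phase response measured of 15 listed, 0 were called at 20 or 30 Gy, 1 rose at 40 Gy and 5 rose at 40 Gy against the lower doses, where 2.99% and 11.8% of all genes tested were called higher, with medians of -0.19, -0.13, 0.80 and 1.15. ITIH4, an acute phase protein in pig, had 1166 and 918 FPKM in control, 713 to 1393 FPKM at the lower doses and 3219, 13251 and 12817 FPKM at 40 Gy (3.05 above the lower doses, SE 0.46, limma adjusted p = 0.00217, range 5.02e-05 to 0.0744). STAT3, the factor that carries the IL-6 signal, had 139 and 111 FPKM in control, 57.7 to 78.9 FPKM at the lower doses and 70.8, 262 and 239 FPKM at 40 Gy, where 40Gy-1 fell within the range of the lower doses. Its difference from the lower doses was 1.28 (SE 0.37, adjusted p = 0.0334, range 9.67e-05 to 0.257), a call lost without any 1 of 7 libraries (20Gy-1 and 20Gy-3, each of 30 Gy, 40Gy-2 and 40Gy-3; 0.0543 to 0.163).

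**Figure D4:**
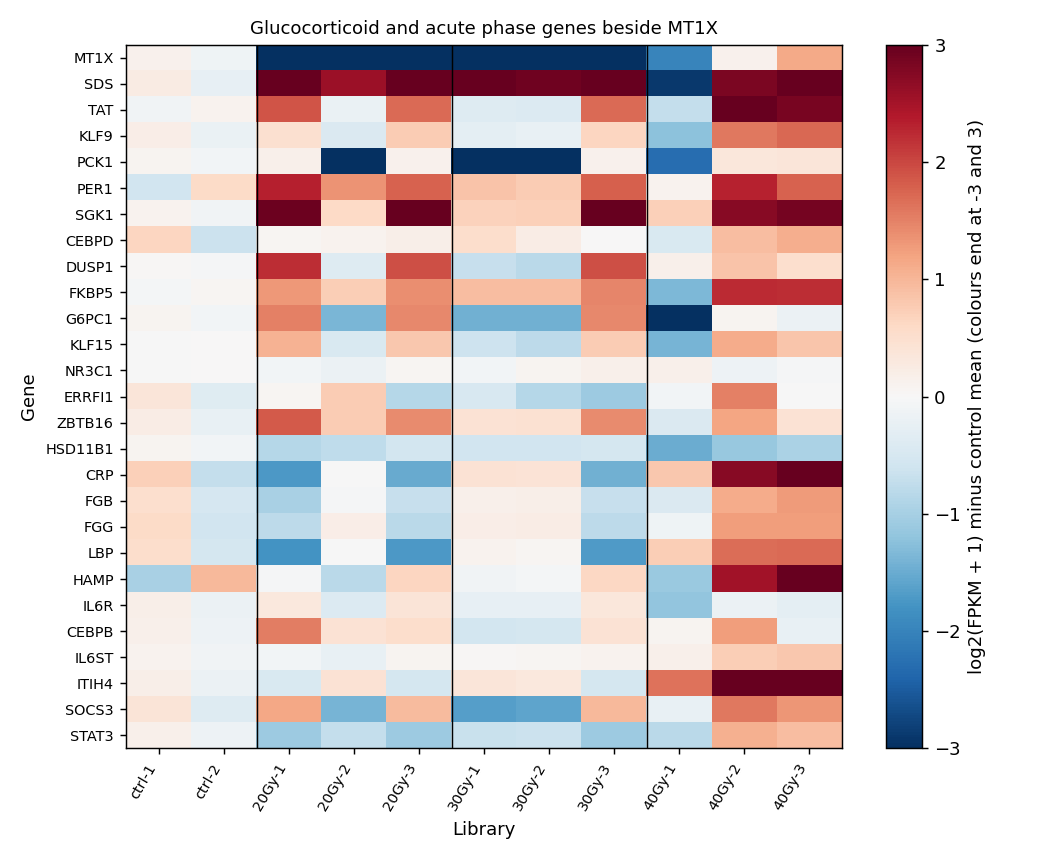
Difference of each library from the control mean, on the log2(FPKM + 1) scale, for MT1X (top), 15 glucocorticoid responsive genes (SDS to HSD11B1) and 11 genes of the IL-6 and acute phase response (CRP to STAT3), with black lines between groups and colours that end at -3 and 3. PCK1 splits the lower doses into 3 libraries near control and 3 far below it. FKBP5 is above control in all 6, and MT1X is far below control in all 6.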

How the data were processed

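Per the labels' protocols, total RNA was extracted from pig liver with Trizol and sequenced from TruSeq RNA libraries as paired ends on a HiSeq instrument. The authors deposited FPKM per gene and library, per the file headers. HISAT2, Cufflinks and HTSeq and the builds Sscrofa11.1 and mm10 appear, with no stated role, in the submitters' processing notes. For annotation, strand and filters, the sources used here give nothing. Because FPKM is relative to a library's total, very abundant genes can lower all others. The summed FPKM was 520839 to 949840 and 10236 to 10866 genes reached 1 FPKM. Among low values (under 0.3 FPKM), steps of 1 read could not be recovered: at most 3.66% of them shared 1 ratio between libraries within 0.002 on the log2 scale, so the depth is unknown, and only the spread among libraries speaks to precision.

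A table of gene names gave symbols for 10561 of the 12505 IDs, and positions come from the RefSeq gene table of Sscrofa11.1. Values were analysed as log2(FPKM + 1), so fold changes understate those of low genes. Genes that reached 1 FPKM in 2 or more libraries (11644) were fitted with 4 group means in limma 3.58.1 (R 4.3.3; eBayes with trend, 7 residual degrees of freedom, two-sided, Benjamini-Hochberg over all genes tested, called at an adjusted p under 0.05). The fit was tested on simulated data. The comparisons were each dose against control and 40 Gy against the mean of 20 and 30 Gy. The first 3 share their control libraries, and all 4 share 1 estimate of the spread. The members, lists, comparisons and alternatives were chosen with earlier results of these data known. Named list genes are those called in any of the 4 comparisons, up to 6 per list by smallest adjusted p, and list counts and medians are descriptions. Of the genes ranked by likeness to MT3, 1 is not reported here. Alternatives were a pseudocount of 0.1, no filter, other scalings, a replicate block, fits to the groups compared, treatments of the near-identical libraries, and each library left out in turn.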

Additional observations from a re-analysis of the deposited data

Results flagged for a closer look

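A named gene is listed here where its difference from control at 40 Gy was unlike that at the lower doses by the test of that difference itself, 40 Gy against the mean of 20 and 30 Gy (limma, adjusted p under 0.05, log2 scale). In that comparison 21.5% of all genes tested were called. No formal test for an outlying library was applied to groups of 2 or 3. Among zinc transporters the differences were 1.39 for SLC30A1, -0.80 for SLC30A2, 0.69 for SLC30A7, 1.01 for SLC39A5, 1.22 for SLC39A14, 0.71 for SLC39A1 and 0.50 for SLC39A6. Among genes of copper and of zinc and copper enzymes they were -0.86 for CCS, -0.73 for SLC31A1, -1.37 for SOD1, -1.70 for the pyrimidine-degrading zinc enzyme DPYS, -3.88 for the carbonic anhydrase CA3 and 1.54 for the alkaline phosphatase ALPL. Among oxidant response genes they were 2.46 for SRXN1, 1.32 for the thioredoxin reductase TXNRD1, 0.92 for the quinone reductase NQO1 and 0.78 for the autophagy receptor SQSTM1. HSD11B1 had -0.55, and the acute phase genes ITIH4, CRP, LBP, STAT3 and IL6ST had 3.05, 2.88, 2.22, 1.28 and 0.57. Of 20 alternatives, the call was lost in 13 for IL6ST, 6 for SQSTM1, 4 each for CRP, TXNRD1 and ALPL, and 3 each for LBP and NQO1. ALPL in 40Gy-1 (88.9 FPKM) fell within the range of the lower doses (45.2 to 103 FPKM). CA3 ran opposite to MT1X at the lower doses, with 6.89 and 0.600 FPKM in control, 33.1 to 47.2 FPKM at 20 and 30 Gy and 15.4, 0.196 and 0.098 FPKM at 40 Gy.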

How the results depend on the processing

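Of 36 calls of named genes, that of SRXN1 at 40 Gy against the lower doses was kept under all 20 alternatives, and 34 were lost with both treatments of the near-identical libraries (the pair within 30 Gy averaged, 20Gy-3 as well as 30Gy-3 dropped); none changed direction among calls. The genes called at 20, 30 and 40 Gy against control and at 40 Gy against the lower doses numbered 492, 353, 861 and 2508. They were 296, 130 and 541 in the first 3 with the pair averaged, 200, 112, 535 and 1186 with those libraries dropped, and 56, 8, 122 and 199 with both. A fit to the groups compared gave 31 at 40 Gy against control, and adjusted p = 0.0437 for SLC30A1 at 20 Gy (-0.87). Leaving out single libraries gave 132 to 1643, 87 to 1098, 237 to 2663 and 851 to 4630 genes, the highest each time without 40Gy-1; with 1 library left in control it is assumed to vary like the other groups. Over the same settings SLC30A1 had -0.88 to -0.85 at 20 Gy, -0.80 to -0.68 at 30 Gy, 0.43 to 0.88 at 40 Gy and 1.23 to 1.68 at 40 Gy against the lower doses (1.37 with both treatments of the near-identical libraries), and MT3 had 2.80 to 6.62 at 40 Gy against control. The replicate block gave 399, 244, 805 and 2554 genes; same-numbered libraries of different groups had correlations of deviations from -0.62 to 0.65, so the number itself does not pair the libraries, although 20Gy-3 and 30Gy-3 are near-identical, and with the block SLC30A1 had -0.91, -0.77, 0.56 and 1.39. Depth is unknown, which leaves the values of MT3 at 0 and of MTF1 near 1 FPKM without a counting error.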

Other observations

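SLC39A10, a zinc importer that MTF1 is known to repress in mouse, was picked out after its values were seen. It had 0.369 and 0.369 FPKM in control, 0.723 to 1.08 FPKM at 20 and 30 Gy, and 1.096, 0.108 and 0.172 FPKM in the libraries of 40 Gy, so it was low where SLC30A1 was highest, and no difference of it passed the threshold. The genes on either side of the metallothionein row on chromosome 6, also picked after the values of MT3 were known, lay in other orders. BBS2 (18542383 to 18575338), a ciliary protein gene, had 3.35 and 2.36 FPKM in control, 2.32 to 4.36 FPKM at 20 and 30 Gy and 2.29 to 2.85 FPKM at 40 Gy. NUP93 (18711869 to 18827705), of the nuclear pore, had 2.10 and 2.37 FPKM in control, 4.31 to 7.30 FPKM at 20 and 30 Gy and 4.22 to 4.91 FPKM at 40 Gy.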
